A study of Macaca mulatta with 5 samples.

Results

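The SST inhibitory neurons of the macaque claustrum were taken as 132 nuclei, out of 40005 nucleus barcodes and 2177 inhibitory nuclei. Single-nucleus RNA sequencing (10x Genomics 3' V3 kit) had been run on frozen claustrum of 2 healthy, untreated male rhesus macaques. Of the 5 libraries, 2 came from a 17-month and 3 from an 18-month animal. Each age is therefore 1 animal, age and animal cannot be told apart, and every p-value below measures the spread between libraries of 2 animals (5 libraries, or fewer where stated). The libraries held between 47512670 and 70896967 unique molecular identifiers (UMIs, each standing for 1 captured RNA molecule), with medians of 2976 to 3485 per barcode.

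The members were chosen by raw UMI counts of marker genes. An inhibitory nucleus held at least 3000 UMIs, at least 3 UMIs of GAD1 and GAD2 together, at most 1 of SLC17A7 and fewer than 15 per 10000 of PDE10A, RGS9 and RARB together. GAD1 and GAD2 make the transmitter GABA, SLC17A7 loads glutamate into vesicles of excitatory neurons, and the last 3 genes mark projection neurons of the neighbouring striatum. An SST nucleus also held at least 3 UMIs of SST and at least 1 of LHX6. Genes of this gate are described below and were not tested. The 17-month libraries 1 and 2 gave 21 and 22 SST nuclei, and the 18-month libraries 1, 2 and 3 gave 33, 33 and 23. All series of 5 values below follow that order of libraries.

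Somatostatin interneurons are local inhibitory cells that arise in the medial ganglionic eminence (MGE) of the embryonic forebrain, where LHX6 directs their fate. In the cortex many of them contact the dendrites of excitatory neurons and so limit the input those cells receive. A rarer type makes neuropeptide Y and nitric oxide synthase, carries CHODL and the substance P receptor TACR1, and sends axons over long distances. Other inhibitory neurons of the forebrain include PVALB cells, also from the MGE, and the VIP and LAMP5 cells that come mostly from the caudal ganglionic eminence (CGE) and carry ADARB2. The claustrum is a narrow grey structure beneath the insula that exchanges connections with most of the cortex.

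SST nuclei made up a small share of the inhibitory nuclei. The share was 4.26% (95% exact binomial interval 2.66 to 6.44), 6.67% (4.22 to 9.92), 6.31% (4.38 to 8.75), 7.01% (4.87 to 9.70) and 6.39% (4.09 to 9.43). The lowest library was the first of the 17-month animal, and the intervals of all 5 libraries overlapped. The intervals cover counting error only. The means were 5.46% ± 1.70 (SD, n = 2 libraries) at 17 months and 6.57% ± 0.381 (SD, n = 3) at 18 months, and the exact two-sided permutation test over the 5 libraries gave p = 0.4, where 0.1 is the smallest p its 10 splits allow. With a stricter minimum of 5 SST UMIs the means were 2.38% and 4.53%, and without the LHX6 requirement they were 8.15% and 9.76%; the exact permutation p was then 0.1 in both cases.

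SST and LHX6 chose the nuclei, so their levels only describe them. SST was at 441, 379, 627, 588 and 524 CPM (UMIs of the gene per 1000000 UMIs of the summed nuclei) and LHX6 at 131, 140, 126, 128 and 109 CPM. Single nuclei held 3 to 34 SST UMIs with a median of 6, and 30 of 132 held at least 10. Markers outside the gate were those of other cell types. PVALB had 0 UMIs in 132 nuclei, which allows a share of up to 2.27% of nuclei with a UMI (3 counts of 132), and 4.58% of the 568 LHX6 nuclei without an SST UMI held one. The VIP-type markers summed to between 7.94 and 15.5 CPM per library in SST nuclei against 117 to 141 CPM in the other inhibitory nuclei. The 8 excitatory markers summed to 162 to 231 CPM, close to the 159 to 205 CPM of the other inhibitory nuclei and far below the 986 to 1178 CPM of excitatory nuclei. Of 5 tested against the other inhibitory nuclei, 1 was called, SLC30A3, higher at 13.8 ± 8.67 against 5.42 ± 0.881 CPM (1.37 ± 0.43, named after its values were seen). In that comparison 1.88% of all genes were called higher.

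Glial RNA was present at low levels. The 6 oligodendrocyte markers summed to between 147 and 637 CPM in SST nuclei and between 301 and 563 CPM in the other inhibitory nuclei, against 11000 to 12550 CPM in oligodendrocyte nuclei. Astrocyte markers summed to 65.3 to 115 CPM against 121 to 239 CPM. In the comparisons below, edgeR called 2 glial markers, named here after their values were seen. The astrocyte marker SLC1A2 was lower than in the other inhibitory nuclei (-1.26 ± 0.18), and VCAN, listed for oligodendrocyte precursors, was higher than in the LHX6 nuclei (2.21 ± 0.28). Tested against the other inhibitory nuclei were 6 oligodendrocyte, 2 precursor, 3 astrocyte and 3 microglia markers, and against the LHX6 nuclei 4, 2, 1 and 2. Of all genes, 5.56% and 6.12% were called in these comparisons. The part of glial RNA in the results was not tested beyond leaving out the nuclei highest in it. Between 11 and 39 barcodes were shared by any pair of libraries. A barcode of an SST nucleus recurred in another library 4 times, and in 0 cases was it an SST nucleus in both. SST nuclei were also deeper than their neighbours, with a median of 13317.5 UMIs against 9206 in the other inhibitory nuclei and 10219.5 in the LHX6 nuclei without SST. The gate asks for minimum raw counts, which deeper nuclei reach more readily. The difference therefore cannot be told apart from the choice of nuclei. Among LHX6 nuclei with 1, 3, 5 to 9 and 10 or more SST UMIs the medians were 11174, 10863.5, 12789 and 15940 UMIs.

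The gate had no sharp edge in the genes around it. Pooled over libraries, the 35 LHX6 nuclei with exactly 2 SST UMIs, just outside, held TRHDE at 1284 CPM, GRIK1 at 4087 CPM and ADARB2 at 6.54 CPM. The 32 nuclei with exactly 3, just inside, held them at 1655, 5309 and 15.4 CPM. Nuclei with 1 SST UMI (86) lay lower in TRHDE and GRIK1, at 929.5 and 3007 CPM, and the 568 with none lay lower still, at 218.8 and 1833 CPM. A further 67 inhibitory nuclei had at least 3 SST UMIs and no LHX6 UMI, with TRHDE at 1334 CPM. They lie outside the gate and are counted among the other inhibitory nuclei, as are the nuclei with 1 or 2 SST UMIs.

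The first question was how SST nuclei differ from the 2045 other inhibitory nuclei of the same libraries. UMIs were summed per library and class, and 10650 genes outside the gate passed the filter on low counts. With a log2 fold change of 1 or more in size and a p under 0.05 after Benjamini-Hochberg adjustment, edgeR called 592 genes, or 5.56% of those tested. Of these, 200 (1.88%) were higher and 392 (3.68%) were lower in SST nuclei. The median log2 fold change of all genes tested was -0.0076. The second comparison took as reference the 568 LHX6 nuclei without an SST UMI. These are not MGE cells alone by their markers, since after thinning ADARB2 was found in 30.1% of them, LAMP5 in 15.1% and PROX1 in 8.45%. There, 7843 genes were tested and 480 (6.12%) called, 212 higher (2.7%) and 268 lower (3.42%), around a median of 0.00088. With every nucleus thinned to 3000 UMIs the first comparison called 424 genes, 333 of them also called at full depth, and the second called 317, of which 253 were called at full depth.

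The genes most raised in SST nuclei coded for kinases, matrix and membrane proteins and a Golgi enzyme. TEC, a cytoplasmic tyrosine kinase, stood at 147, 62.2, 100, 93.2 and 31.3 CPM. Every library lay above the other inhibitory nuclei (7.50 ± 0.983 CPM, mean ± SD, n = 5) and above the LHX6 nuclei without SST (2.72 ± 2.38 CPM), although the libraries differed among themselves. Its fitted log2 fold change was 3.51 ± 0.23 (SE, adjusted p = 5.28e-12) against the former and 4.84 ± 0.30 (adjusted p = 4.25e-10) against the latter. EGFLAM, an extracellular matrix protein, was at 139, 21.8, 80.5, 26.0 and 15.6 CPM against 5.54 ± 1.91 and 3.09 ± 2.28 CPM. It was high in the first libraries of both animals and lower in the others, yet never overlapped the references, at 3.27 ± 0.35 and 4.03 ± 0.50 on the log2 scale.

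ANXA2, an annexin that binds membranes in the presence of calcium, was more even over libraries. Its level was 127, 74.6, 118, 104 and 159 CPM in SST nuclei, 14.3 ± 4.87 CPM in the other inhibitory nuclei and 10.3 ± 2.53 CPM in the LHX6 nuclei without SST, with log2 fold changes of 3.12 ± 0.19 and 3.55 ± 0.22. LTBP1, which holds the growth factor TGF-beta in a latent complex, was at 437, 364, 511, 371 and 302 CPM against 65.7 ± 15.4 and 34.1 ± 7.91 CPM. Its log2 fold changes were 2.65 ± 0.11 and 3.57 ± 0.13, with no overlap between classes. MAN1A1, a Golgi enzyme that trims mannose from glycoproteins, reached 743, 413, 692, 546 and 675 CPM. The other inhibitory nuclei held 105 ± 16.2 CPM and the LHX6 nuclei 34.9 ± 19.9 CPM, so that all SST libraries were far above both, by 2.59 ± 0.11 and 4.26 ± 0.17 log2 units.

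The rest of the 12 highest genes followed the same pattern without overlap in any library. These genes were chosen as the largest called changes with the same direction in every library, so the lack of overlap adds no evidence. The same holds for the other genes that the rule for naming selected by their calls. SH3RF2 was 3.15 ± 0.17 log2 units higher than in the other inhibitory nuclei, FAM89A 2.73 ± 0.37, the kinase gene PRKCQ 2.63 ± 0.21 and the membrane glycoprotein gene PROM1 2.53 ± 0.19. GLDC, the glycine-degrading subunit of the mitochondrial glycine cleavage system, was 2.34 ± 0.15 higher, and RNF152, a ubiquitin ligase of lysosomes, 2.30 ± 0.13. COL19A1, a collagen gene known from interneurons, was at 751, 504, 494, 622 and 445 CPM in SST nuclei and at 119 ± 33.9 CPM in the other inhibitory nuclei, a log2 difference of 2.29 ± 0.22. The phosphatase gene PTPN14 ranked among the highest against the LHX6 nuclei, at 3.63 ± 0.31, with 49.5 to 127 CPM against 7.87 ± 5.25 CPM. FAM89A was the exception under other settings, with an adjusted p of 0.058 in the 17-month libraries alone.

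**Figure D1:**
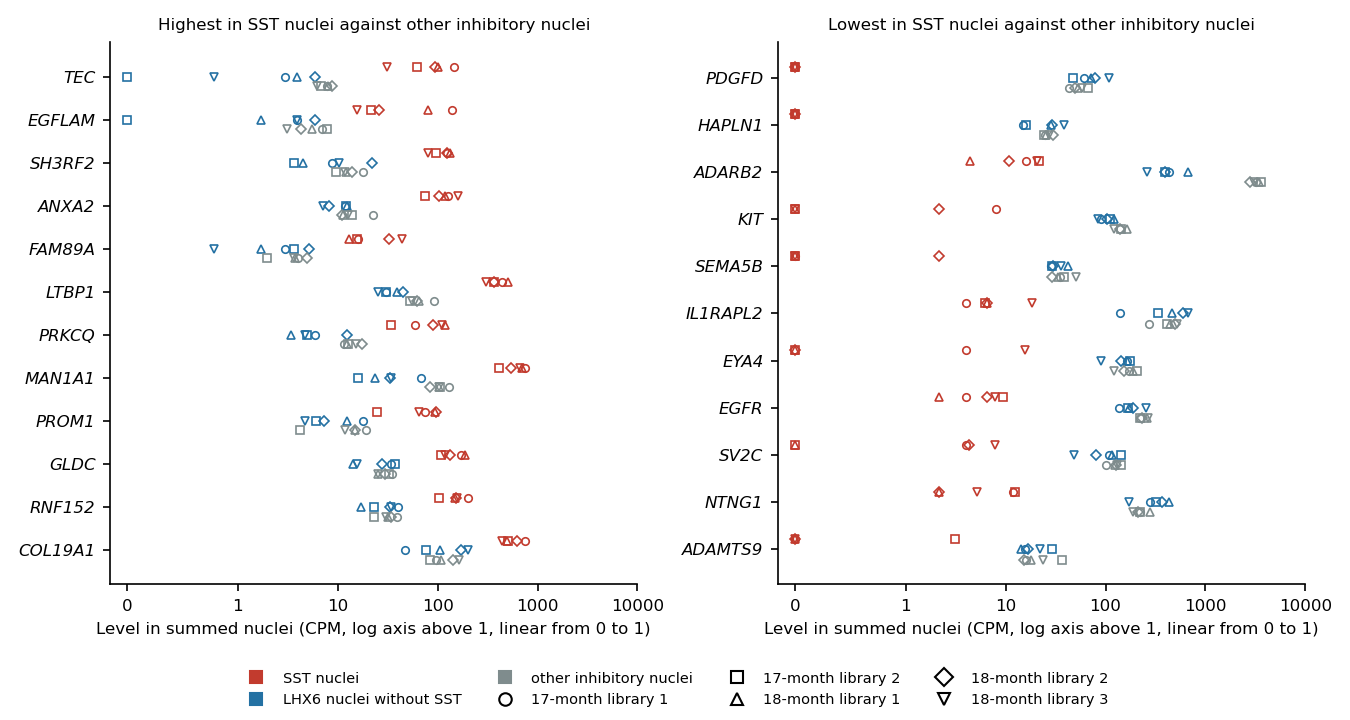
Level (CPM, log axis above 1) of the 12 genes highest and 11 of the 12 lowest in SST nuclei against the other inhibitory nuclei, with 1 point per library for SST nuclei (red), LHX6 nuclei without SST (blue) and other inhibitory nuclei (grey). On the left all red points lie right of the blue and grey ones, for MAN1A1 at 413 to 743 CPM; on the right the red points lie at or near 0, as for PDGFD, and those of ADARB2 between 4.35 and 21.8 CPM.

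The genes most reduced in SST nuclei included those that define other interneurons. ADARB2, a catalytically silent relative of RNA-editing enzymes that marks the CGE lineage, was at 15.9, 21.8, 4.35, 10.8 and 20.8 CPM. The other inhibitory nuclei held 3220 ± 321 CPM and the LHX6 nuclei without SST 430 ± 147 CPM. All SST libraries were far below both, with log2 fold changes of -7.79 ± 0.17 (adjusted p = 7.05e-22) and -4.87 ± 0.28 (adjusted p = 1.19e-07). PDGFD, a ligand of platelet-derived growth factor receptors, had 0 UMIs in all 5 SST sums against 53.9 ± 8.78 and 73.6 ± 23.2 CPM. Set against a floor of 3 counts over the group (1.60 CPM), it was at least 33.3-fold lower than in the other inhibitory nuclei and at least 47.5-fold lower than in the LHX6 nuclei.

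HAPLN1, the link protein that joins hyaluronan and proteoglycans in the matrix around neurons, also had 0 UMIs and was at least 16.5-fold lower than in the other inhibitory nuclei. KIT, a receptor tyrosine kinase, had 3 UMIs in all SST nuclei, a ratio of 89.1 (95% counting interval 30.5 to 432) to the other inhibitory nuclei and 64.9 (22.1 to 316) to the LHX6 nuclei. SEMA5B, a guidance molecule, had 1 UMI and a ratio of 69.3 (12.4 to 2742). These counts are too few for a firm size, but they were low in each library.

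EGFR, the receptor of epidermal growth factor, was at 3.97, 9.32, 2.18, 6.50 and 7.81 CPM against 240 ± 20.9 and 185 ± 43.8 CPM, with log2 fold changes of -5.31 ± 0.22 and -4.93 ± 0.23. SV2C, a synaptic vesicle glycoprotein, was at 3.97, 0, 0, 4.34 and 7.81 CPM against 126 ± 15.3 and 99.3 ± 36.5 CPM, or -5.25 ± 0.31 and -4.79 ± 0.40. No SST library reached any reference library for either gene. EYA4 (-5.41 ± 0.50) was lower against the other inhibitory nuclei as well. Of the 7 EYA4 UMIs in SST nuclei, 6 came from a single nucleus of 18-month library 3.

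Among neuropeptide genes, NPY and the corticotropin-releasing hormone binding protein CRHBP were higher and VIP was lower. The list had 19 genes, of which 8 could be tested against the other inhibitory nuclei, with 2 higher, 2 lower and 4 not called around a median of 0.59. Over all genes 1.88% were called higher and 3.68% lower. NPY, which encodes neuropeptide Y, stood at 19.9, 146, 58.8, 152 and 242 CPM. The first 17-month library lay just below all libraries of the other inhibitory nuclei and within the range of the LHX6 nuclei, and the remaining 4 lay above both, against 23.1 ± 3.29 CPM in the other inhibitory nuclei and 17.9 ± 5.77 CPM in the LHX6 nuclei without SST. The log2 fold changes were 2.39 ± 0.46 (adjusted p = 0.033) and 2.74 ± 0.44 (adjusted p = 0.0069). Without 17-month library 2 or without 18-month library 2 the first adjusted p became 0.145 and 0.135, and with a striatal limit of 5 per 10000 it became 0.064; with the 17-month libraries alone the second became 0.111.

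CRHBP was at 115, 99.5, 113, 82.4 and 159 CPM, and all libraries exceeded the 45.1 ± 7.90 CPM of the other inhibitory nuclei, at 1.35 ± 0.15 log2 units (adjusted p = 1.49e-07). Against the LHX6 nuclei (72.7 ± 13.4 CPM) its difference of 0.67 ± 0.16 stayed under the fold threshold. VIP had 3 UMIs in SST nuclei, a ratio of 13.6 (4.61 to 66.0) below the other inhibitory nuclei. TAC1, the precursor of substance P, was at 51.6, 18.7, 21.8, 45.5 and 75.5 CPM against 21.7 ± 8.70 CPM and was not called (0.94 ± 0.24). It was called in 5 alternative settings, among them without 18-month library 1 (1.18, adjusted p = 0.0028), and unchanged in 16. PNOC, the nociceptin precursor, had an adjusted p of 0.057 at 0.98 ± 0.34. It was called in 3 alternative settings and unchanged in 17. CCK and CRH were too low to be tested, and PDYN had 0 UMIs.

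The SST subtype markers as a list held 25 genes, of which 18 were tested against the other inhibitory nuclei. Higher were 6 (NPY, CALB1, CRHBP, TRHDE, GRIK3 and GXYLT2), lower were 4 (CALB2, RELN, STK32A and NMBR) and 8 were not called, with a median of 0.67. Against the LHX6 nuclei 11 were tested and 5 were higher (NPY, RELN, TRHDE, GRIK3 and SYNPR), with 0 lower and a median of 1.02. Both counts can be read beside the 1.88% and 2.7% of all genes called higher, with the reserve that the list was chosen with earlier results of these nuclei known.

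TRHDE, which degrades thyrotropin-releasing hormone at the cell surface, was the clearest of the list. It stood at 1593, 1181, 1460, 1851 and 1406 CPM in SST nuclei, 319 ± 51.0 CPM in the other inhibitory nuclei and 222 ± 36.2 CPM in the LHX6 nuclei without SST. No library overlapped, and the log2 fold changes were 2.28 ± 0.09 (adjusted p = 8.02e-17) and 2.81 ± 0.11 (adjusted p = 4.21e-13). Of 132 SST nuclei, 97.7% held a TRHDE UMI.

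RELN, the secreted glycoprotein reelin, moved in opposite directions in the comparisons. It was at 123, 77.7, 76.2, 71.5 and 169 CPM in SST nuclei, below the 359 ± 88.6 CPM of the other inhibitory nuclei and above the 34.1 ± 16.2 CPM of the LHX6 nuclei, in each case without overlap. The fitted log2 values were -1.76 ± 0.13 and 1.62 ± 0.17. Oligodendrocyte nuclei held RELN more often than SST nuclei did (below), and the part of RELN RNA from other cells was not tested. SYNPR, a synaptic vesicle protein, was at 1319, 1091, 1175, 1119 and 1234 CPM against 450 ± 56.6 CPM in the LHX6 nuclei, at 1.45 ± 0.10. CALB1, the calcium buffer calbindin, was at 75.5, 43.5, 50.1, 30.4 and 33.9 CPM against 20.7 ± 5.75 CPM. All SST libraries were above the other inhibitory ones, at 1.20 ± 0.21. The call was lost in 2 alternative settings, among them thinning (0.53, adjusted p = 0.664), and CALB1 was not called against the LHX6 nuclei (0.62 ± 0.23). CALB2, or calretinin, was at 5.21 to 8.67 CPM against 39.0 ± 8.38 CPM (-2.39 ± 0.30). GXYLT2, called at 1.12 ± 0.36 (adjusted p = 0.041), lost the call in 10 alternative settings. Among them were the fits without any 1 of the 18-month libraries, with adjusted p values of 0.213, 0.192 and 0.187 for libraries 1, 2 and 3. NMBR had 0 UMIs and was at least 7.97-fold lower. STK32A had 2 UMIs in SST nuclei, a ratio of 8.46 (2.31 to 70.4) below the other inhibitory nuclei. Its call was lost in 5 alternative settings, with an adjusted p of 0.071 and 0.113 without the first or the second of the 18-month libraries.

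**Figure D2:**
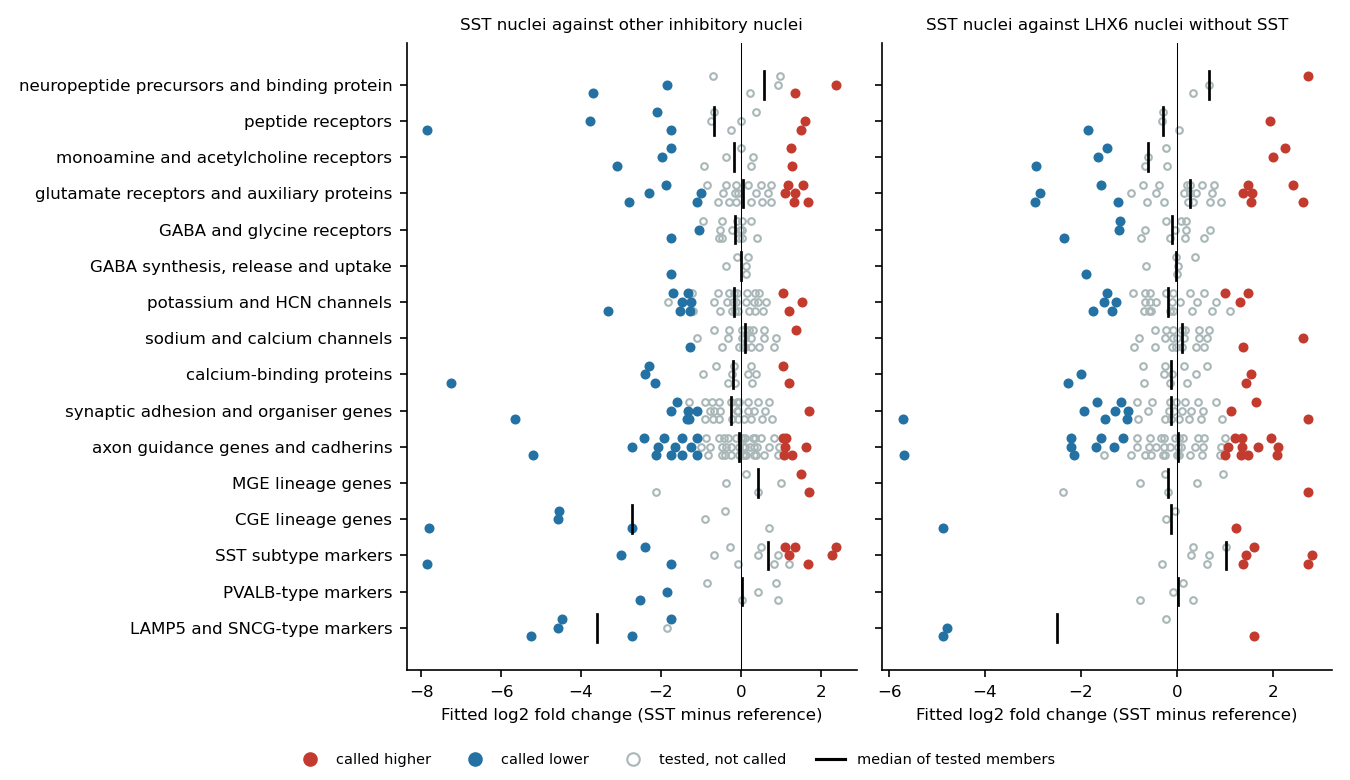
Fitted log2 fold change of each tested member of 16 gene lists in SST nuclei against the other inhibitory nuclei (left) and against the LHX6 nuclei without SST (right), with genes called higher in red, called lower in blue, not called in open grey and the median of each list as a black bar. The LAMP5 and SNCG-type markers lie to the left, at a median of -3.59 on the left panel, and most other lists hold both red and blue points around 0.

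Of the genes that mark the origin of interneurons, some of the MGE were higher and some of the CGE lower. The gate asks for LHX6, and the other inhibitory nuclei include 944 ADARB2 nuclei without LHX6 or SST. Part of this contrast therefore follows from the choice of nuclei. Of 7 tested MGE lineage genes, 2 were higher than in the other inhibitory nuclei (SATB1 and ELFN1) and 0 were lower, around a median of 0.43. Over all genes 1.88% were called higher and 3.68% lower. SATB1, a chromatin organiser needed for SST cell maturation, was at 493, 507, 636, 542 and 563 CPM against 201 ± 30.8 CPM. It never overlapped, at 1.50 ± 0.10, and against the LHX6 nuclei (294 ± 47.4 CPM) it was 0.96 ± 0.11, below the fold threshold. The latter difference was called in 5 alternative settings and unchanged in 13. ELFN1, a postsynaptic adhesion protein that shapes the excitatory input onto SST cells, was at 63.6, 28.0, 52.2, 32.5 and 46.9 CPM. The other inhibitory nuclei held 14.0 ± 2.28 CPM and the LHX6 nuclei 6.83 ± 2.74 CPM, all below the lowest SST library, with log2 fold changes of 1.71 ± 0.24 and 2.74 ± 0.32. SOX6, which acts downstream of LHX6, was at 286, 706, 453, 549 and 958 CPM against 289 ± 56.4 CPM and was not called (1.02 ± 0.27, adjusted p = 0.084). It was called in 7 alternative settings, among them without 17-month library 1 (1.18, adjusted p = 0.0071), and unchanged in 14.

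Of 7 tested CGE lineage genes 4 were lower than in the other inhibitory nuclei and 0 were higher, with a median of -2.71. The counts of this paragraph stand beside 3.68% of all genes called lower and 1.88% higher in that comparison. Beside ADARB2, these were PROX1 (-4.56 ± 0.44), a transcription factor, CNR1 (-2.71 ± 0.18), the cannabinoid receptor, and the chemokine gene CXCL14, which had 3 UMIs in SST nuclei and a ratio of 25.6 (8.75 to 125). Of 6 tested LAMP5 and SNCG-type markers 5 were lower. LAMP5, a membrane protein of lysosomes and vesicles, was at 0, 0, 4.35, 4.34 and 0 CPM against 48.9 ± 11.0 and 66.1 ± 22.6 CPM, at -4.47 ± 0.41 and -4.88 ± 0.39. NPAS1 went the other way against the LHX6 nuclei, where this CGE-listed factor was higher (1.23 ± 0.26, 38.9 ± 15.5 against 16.9 ± 3.26 CPM). It lost the call in 2 alternative settings, among them the 17-month libraries alone (adjusted p = 0.457). Of 7 tested PVALB-type markers 0 were higher and 2 were lower (COL15A1 and PTHLH), around 0.03, and among 4 tested against the LHX6 nuclei 0 were called. COL15A1 had 3 UMIs and lost its call in 4 alternative settings, among them without 18-month library 1 (adjusted p = 0.062). PTHLH, with 5 UMIs, lost its call in 8 alternative settings, among them without any 1 of 4 libraries (adjusted p between 0.052 and 0.202).

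The glutamate receptors were changed in both directions. Of 28 tested genes of receptors and auxiliary proteins, 6 were higher and 5 were lower than in the other inhibitory nuclei (median 0.06), and 6 were higher and 4 lower than in the LHX6 nuclei (median 0.27), where over all genes 1.88% and 3.68%, and 2.7% and 3.42%, were called higher and lower. GRIK3, a kainate receptor subunit, was at 564, 438, 579, 583 and 542 CPM against 175 ± 21.6 and 216 ± 29.6 CPM. All libraries were above both references, at 1.68 ± 0.10 and 1.38 ± 0.11.

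Calls among AMPA receptor genes went both ways. The subunit gene GRIA3 was called higher against the other inhibitory nuclei. The auxiliary gene SHISA6 was called higher against the LHX6 nuclei, and both are named here after their calls were seen. GRIA4, the AMPA receptor subunit abundant in fast interneurons, was at 298, 715, 287, 206 and 234 CPM against 1623 ± 92.8 and 2352 ± 81.8 CPM. The second 17-month library was the highest of the 5 and still below every reference library, at -2.30 ± 0.31 (adjusted p = 0.010) and -2.84 ± 0.28; with at least 5 SST UMIs per nucleus the first adjusted p was 0.059. SHISA9, an auxiliary subunit of AMPA receptors, was at 131, 214, 80.5, 102 and 120 CPM against 895 ± 66.8 and 1017 ± 170 CPM, or -2.80 ± 0.13 and -2.96 ± 0.14. The kainate receptor gene GRIK4 was also lower (-1.88 ± 0.18 and -1.57 ± 0.24). GRIK1 and its auxiliary subunit NETO2, picked here after their values were seen, were both higher, by 1.34 ± 0.09 and 1.36 ± 0.09 against the other inhibitory nuclei, with GRIK1 at 6983, 4214, 4490, 4921 and 5190 CPM against 2082 ± 253 CPM.

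The acetylcholine receptor genes CHRM3 and CHRNA7 were higher, and the adrenergic receptor genes ADRA1A and ADRA1B and the serotonin receptor gene HTR2C were lower. Of 10 tested monoamine and acetylcholine receptor genes, 2 were higher and 3 were lower than in the other inhibitory nuclei, beside 1.88% and 3.68% of all genes, and 2 and 3 were again called among 9 tested against the LHX6 nuclei, beside 2.7% and 3.42%. CHRM3, a muscarinic receptor, was at 1299, 892, 1134, 1086 and 839 CPM against 438 ± 30.0 and 228 ± 38.4 CPM, without overlap, at 1.29 ± 0.09 and 2.25 ± 0.11. CHRNA7, a nicotinic receptor subunit, was at 127, 121, 207, 234 and 138 CPM against 73.0 ± 8.86 and 42.8 ± 5.83 CPM (1.26 ± 0.16 and 2.00 ± 0.15). Lower were the adrenergic receptor genes ADRA1B (-1.96 ± 0.26 and -1.45 ± 0.31) and ADRA1A (-1.74 ± 0.37 and -1.63 ± 0.37) and the serotonin receptor gene HTR2C (-3.11 ± 0.45 and -2.94 ± 0.55). ADRA1A lost its call against the other inhibitory nuclei in 5 alternative settings, among them without 17-month library 2 (adjusted p = 0.120) or 18-month library 2 (adjusted p = 0.116). HTR2C lost it at a minimum of 2 SST UMIs (-1.27, adjusted p = 0.456) and after thinning (adjusted p = 0.079). Against the LHX6 nuclei ADRA1A lost it in 6 alternative settings, among them without either 17-month library (adjusted p = 0.052 and 0.079) or without 18-month library 2 (adjusted p = 0.104).

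Of 32 peptide receptor genes only 11 could be tested. OPRM1, the mu opioid receptor, was higher at 183, 74.6, 89.2, 58.5 and 83.3 CPM against 33.8 ± 7.56 and 26.4 ± 10.5 CPM (1.50 ± 0.25 and 1.94 ± 0.22). The first 17-month library was the highest, and the lowest still exceeded the references. The orexin receptor gene HCRTR2 was at 0, 0, 0, 2.17 and 10.4 CPM against 38.2 ± 1.69 CPM in the other inhibitory nuclei (-3.78 ± 0.45). SSTR2, a receptor for somatostatin itself, was at 3.97, 0, 4.35, 4.34 and 7.81 CPM against 14.8 ± 3.59 CPM (-1.76 ± 0.44). It lost the call in 4 alternative settings, among them without 18-month library 1 (adjusted p = 0.063).

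The GABA receptor genes GABRB2 and GABRD were lower. Of 16 tested GABA and glycine receptor genes 0 were higher and 2 lower than in the other inhibitory nuclei, and of 14 tested against the LHX6 nuclei 0 were higher and 3 lower, beside 3.68% and 3.42% of all genes called lower. GABRB2, a subunit common in synaptic receptors, was at 314, 357, 324, 293 and 276 CPM against 670 ± 43.7 and 742 ± 56.7 CPM (-1.06 ± 0.09 and -1.20 ± 0.10). Its call against the other inhibitory nuclei was lost in 3 alternative settings. GABRD, a subunit of receptors outside synapses, was at 7.94, 24.9, 19.6, 4.34 and 5.21 CPM against 41.7 ± 5.87 and 63.4 ± 10.0 CPM (-1.75 ± 0.31 and -2.35 ± 0.31), and was not called in the 17-month libraries alone (adjusted p = 0.336 and 0.129). No SST library overlapped a reference library for either gene.

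Potassium channel genes were called in both directions. Of 35 tested potassium and HCN channel genes 3 were higher and 7 lower than in the other inhibitory nuclei (median -0.16), and of 24 sodium and calcium channel genes 1 was higher and 1 lower (median 0.10). Over all genes 1.88% were higher and 3.68% lower. KCND2, which carries the transient A-type potassium current, was at 2872, 2387, 2921, 2961 and 2123 CPM against 1194 ± 177 and 969 ± 91.2 CPM, at 1.20 ± 0.11 and 1.49 ± 0.11. KCNIP1, a calcium sensor that binds channels of that family, was higher too (1.06 ± 0.09 and 1.44 ± 0.10), at 604 to 751 CPM. KCNIP2 of the same family was lower (-2.15 ± 0.22 and -2.27 ± 0.25), at 3.97 to 28.2 CPM. CACNA2D3, an auxiliary calcium channel subunit, was at 1641, 1243, 1593, 1979 and 1768 CPM against 649 ± 91.3 and 276 ± 48.4 CPM (1.38 ± 0.09 and 2.63 ± 0.12), with no overlap. KCNT2, a sodium-activated potassium channel, was lower against the other inhibitory nuclei (-3.33 ± 0.19) and not called against the LHX6 nuclei (-0.54 ± 0.26). KCNAB1, a subunit that speeds channel closing, was lower against both (-1.26 ± 0.12 and -1.74 ± 0.13).

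In the nitric oxide pathway NOS1AP and GUCY1A1 were called in opposite directions. NOS1AP, an adaptor of neuronal nitric oxide synthase, was at 806, 460, 681, 761 and 667 CPM against 246 ± 15.9 and 225 ± 20.7 CPM (1.49 ± 0.10 and 1.62 ± 0.12). GUCY1A1, a subunit of the enzyme that senses nitric oxide, was at 19.9, 24.9, 21.8, 23.9 and 28.7 CPM against 98.0 ± 9.74 and 120 ± 6.63 CPM (-2.01 ± 0.18 and -2.28 ± 0.18). NOS1 itself was at 115, 510, 82.7, 137 and 500 CPM against 104 ± 10.7 CPM. The libraries split widely, and it was not called in either comparison (1.20 ± 0.50, adjusted p = 0.279, and 1.02 ± 0.64, adjusted p = 0.454).

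Genes of synaptic adhesion and axon guidance were called in both directions. Of 35 tested adhesion and organiser genes 1 was higher and 7 were lower (median -0.24), and of 56 guidance genes and cadherins 6 were higher and 13 lower (median -0.05). Lower calls also outnumbered higher ones over all genes, at 3.68% and 1.88%. Against the LHX6 nuclei the counts were 3 and 8 of 31, and 11 and 8 of 50, beside 2.7% and 3.42% of all genes. ERBB4, the neuregulin receptor of interneurons, was at 2820, 4808, 3149, 2062 and 2050 CPM against 8896 ± 665 CPM in the other inhibitory nuclei. All SST libraries were below all reference ones, at -1.61 ± 0.24 and, against the LHX6 nuclei, -1.95 ± 0.21. Its ligand gene NRG1 was lower as well (-1.74 ± 0.22 and -1.05 ± 0.21). IL1RAPL2, a synaptic organiser of the interleukin receptor family, was at 3.97, 6.22, 6.53, 6.50 and 18.2 CPM against 430 ± 98.7 and 439 ± 209 CPM (-5.66 ± 0.19 and -5.72 ± 0.20).

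NTNG1, a membrane-bound netrin, was at 11.9, 12.4, 2.18, 2.17 and 5.21 CPM against 225 ± 34.0 and 314 ± 98.6 CPM (-5.21 ± 0.24 and -5.68 ± 0.26). The netrin receptor UNC5C was also lower (-2.12 ± 0.19 and -2.21 ± 0.20). DCC, another netrin receptor and picked here after its values were seen, was higher, at 2197, 2390, 2420, 2435 and 1625 CPM against 736 ± 67.3 and 534 ± 120 CPM (1.63 ± 0.10 and 2.11 ± 0.11). The ephrin receptor EPHA3 was lower (-2.42 ± 0.18 and -2.14 ± 0.21).

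Detection in single nuclei was compared at equal depth, since SST nuclei were deeper. After thinning to 3000 UMIs, NPY was found in 20.5% of SST nuclei (exact 95% interval 13.9 to 28.4), against 41.7% unthinned. In LHX6 nuclei without SST it was 6.51% (14.3% unthinned) and in excitatory nuclei, whose median was 19641 UMIs, 4.32% (20.1% unthinned). Oligodendrocyte nuclei, with a median of 3687 UMIs, gave 7.46%, so the SST share stood above all of these. TRHDE was found in 87.9% of thinned SST nuclei, 28.7% of LHX6 nuclei without SST, 54.7% of excitatory nuclei and 17.5% of oligodendrocyte nuclei. GRIK3 was in 73.5%, 35.9%, 36.3% and 6.50% of the same classes. For ELFN1 the shares were 18.2% and 2.64%. CRHBP, NOS1 and TAC1 were found at like shares in SST and LHX6 nuclei after thinning, with 20.5% and 17.1% for CRHBP, 25.0% and 23.4% for NOS1, and 10.6% and 9.16% for TAC1; the intervals overlapped. RELN was in 21.2% of SST nuclei, 6.51% of LHX6 nuclei and 31.4% of ADARB2 nuclei, but in 68.1% of oligodendrocyte nuclei. Unthinned, its 189 UMIs in SST nuclei came from 47 nuclei, with up to 18 in 1 nucleus. How much of it came from other cells was not tested.

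**Figure D3:**
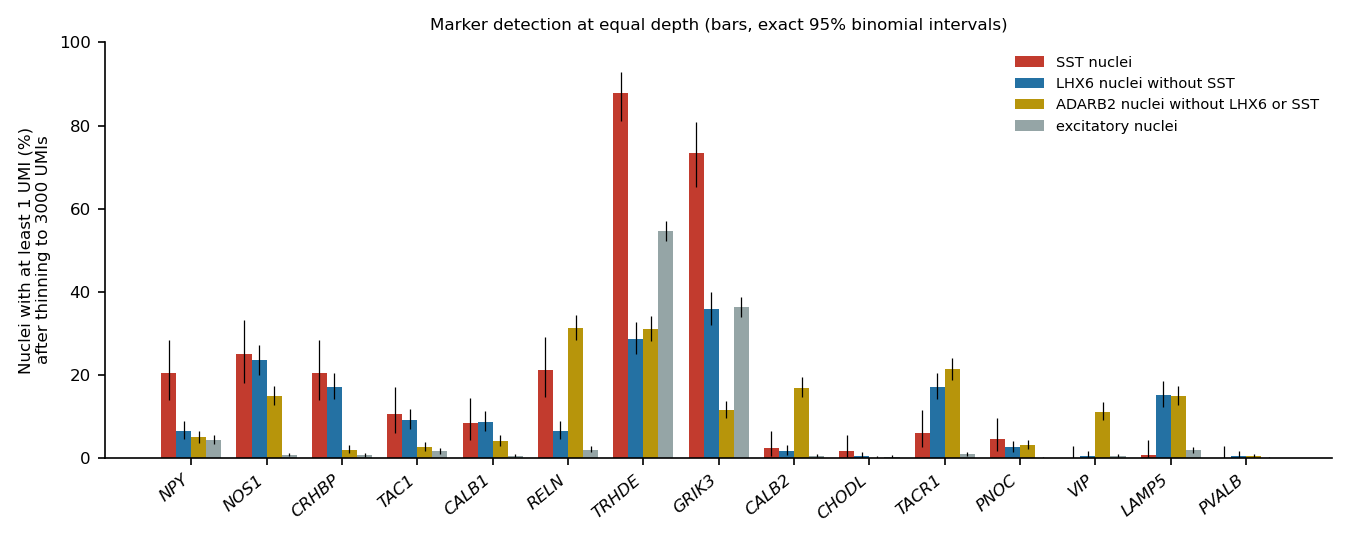
Share of nuclei (%) with at least 1 UMI after every nucleus was thinned to 3000 UMIs, for 15 markers in SST nuclei, LHX6 nuclei without SST, ADARB2 nuclei without LHX6 or SST and excitatory nuclei, with exact 95% binomial intervals that cover counting error only. TRHDE (87.9%) and GRIK3 (73.5%) stand highest in SST nuclei, and PVALB and VIP are at 0 there.

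The SST nuclei varied among themselves. NPY was present in 55 of 132 nuclei, NOS1 in 81, CRHBP in 67, RELN in 47, CALB1 in 44 and TAC1 in 31. NPY and NOS1 occurred together in 35 nuclei, and 31 nuclei had no UMI of NPY, NOS1 or CHODL. NOS1 was found in 63.6% of the nuclei with NPY and in 59.7% of those without. The NPY share was 19.1% in the first 17-month library and 11 of 22 nuclei in the second. In the 18-month libraries it was 39.4%, 48.5% and 47.8%, so it was lowest in the first 17-month library. These shares are unthinned, and that library also had the shallowest SST nuclei, with medians of 10792, 13588.5, 12789, 12760 and 15698 UMIs over the libraries. The part of depth in the NPY share was not tested. The share of NOS1 lay between 56.5% and 71.4%. For NOS1 the share of nuclei was thus even over libraries where its summed level was not.

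Part of that spread of levels came from a few nuclei. Among them were 5 that held CHODL, picked here after their values were seen and therefore described without a test. They came from 17-month library 2 (1), 18-month library 2 (1) and 18-month library 3 (3). Before thinning, CHODL was found in 3.79% of SST nuclei, and it was found in 3.84% of oligodendrocyte nuclei. The depths differ, with medians of 13317.5 and 3687 UMIs, and the share alone does not stand above background. An SST nucleus held up to 6 UMIs and an oligodendrocyte nucleus at most 3. The 5 nuclei gave 4.63% of all UMIs of SST nuclei. They gave 46.3% of the NPY UMIs, 49.4% of the NOS1 UMIs and 55.4% of the TACR1 UMIs.

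Pooled, the 5 nuclei stood at 1288 CPM for NPY against 72.6 CPM in the other 127, at 2761 against 137 CPM for NOS1 and at 943 against 36.8 CPM for TACR1. SOX6 was at 2634 against 502 CPM and CRHBP at 380 against 99.9 CPM. All 5 held NPY, TACR1 and CRHBP and 4 held NOS1. TRHDE went the other way, at 127 against 1583 CPM, as did GRIK3 at 196 against 563 CPM, while SST, a gate gene, was at 598 against 525 CPM. Without these nuclei, an alternative added after seeing the data, NPY was at 19.9, 125, 58.8, 102 and 43.0 CPM, and its log2 fold change was 1.62 (adjusted p = 8.81e-06) against the other inhibitory nuclei and 1.97 (adjusted p = 1.38e-05) against the LHX6 nuclei. NOS1 then stood at 115, 376, 82.7, 97.4 and 64.5 CPM, so that 17-month library 2 remained high. In that library 2 nuclei without CHODL held 47 and 50 NOS1 UMIs, 17 and 22 of TACR1 and 45 and 85 of SOX6, so these traits were not confined to the nuclei with CHODL.

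**Figure D4:**
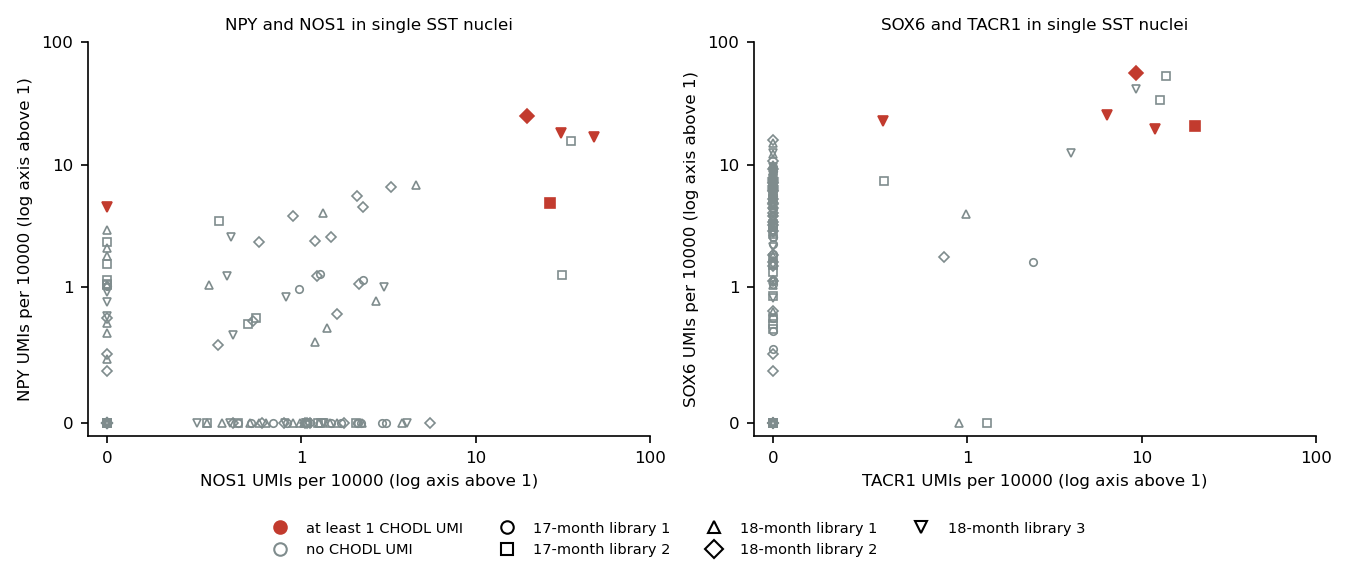
UMIs per 10000 in each of the 132 SST nuclei, for NPY against NOS1 (left) and SOX6 against TACR1 (right), on axes that are logarithmic above 1, with nuclei that hold a CHODL UMI filled in red and marker shapes giving the library. Of the 5 red nuclei, 4 lie at the upper right of the left panel and the remaining nucleus has no NOS1 UMI, with NPY at 8 to 45 UMIs each and SOX6 at 28 to 68.

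NPY also divided the SST nuclei for a test. In the 4 libraries with at least 10 nuclei on each side, nuclei with NPY were compared with those without across 3891 genes, and edgeR called 8 (0.206%). NEGR1, a cell adhesion gene of neurite growth, was at 2598, 2230, 1992 and 2303 CPM with NPY and 759, 943, 1427 and 1002 CPM without it in 17-month library 2 and 18-month libraries 1 to 3. The sides did not overlap, at 1.18 ± 0.20. HS3ST4, a heparan sulfate sulfotransferase, was higher at 250.1, 152, 281 and 65.8 CPM against 107, 25.4, 78.8 and 14.9 CPM (1.83 ± 0.28); within each library the side with NPY was higher, although the ranges overlapped. STK32B (1.26 ± 0.23) and CHN2 (1.11 ± 0.20) were also higher.

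ZMAT4, a zinc finger gene, was lower with NPY, at 76.4, 125, 204 and 71.3 CPM against 467, 385, 417 and 511 CPM, without overlap (-1.87 ± 0.28). IL12RB2 (-2.22 ± 0.41), TRDN (-1.73 ± 0.27) and KAZN (-1.26 ± 0.22) were lower as well. These calls changed when single libraries were left out. Without 18-month library 1 edgeR called 3 genes, 0 of them among the 8, without 17-month library 2 it called 13 and without 18-month library 3 it called 12. Without the nuclei with CHODL, which also left 18-month library 3 with too few nuclei and so 3 libraries in the fit, 4 of the 8 remained, and NEGR1, HS3ST4, STK32B and TRDN lost the call (adjusted p between 0.066 and 0.221).

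CALB1 gave less. Only the first libraries of both animals had 10 nuclei on each side, and 1 of 3840 genes was called (0.026%). LUZP2 was at 43.9 and 27.9 CPM in nuclei with CALB1 and at 712 and 180 CPM in those without (-3.41 ± 0.39, adjusted p = 0.014). Both libraries showed the same direction, and 2 libraries leave little measure of spread. Single nuclei weighed heavily. Without the nucleus highest in LUZP2, its level over all SST nuclei fell from 350 to 176 CPM in the 17-month library. In the 18-month library it fell from 109 to 79.5 CPM. At an unadjusted p under 0.05 there were 199 genes, and DESeq2 also called 1.

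The last question was whether SST nuclei differed between the animals. Of 6538 genes tested on the 5 sums, edgeR called 9 at an adjusted p under 0.05 (0.138%), 4 higher and 5 lower at 18 months. None belonged to the neuropeptides, the SST subtype markers or the lineage genes. PDE3A, a phosphodiesterase that breaks down cyclic nucleotides, was at 103, 65.3, 2.18, 6.50 and 13.0 CPM, a log2 difference of -3.53 ± 0.50 (adjusted p = 0.0088). The 17-month libraries were both far above the 18-month ones. In the other inhibitory nuclei PDE3A was at 234, 265, 282, 308 and 350 CPM, with the higher values at 18 months. Its 56 UMIs came from 22 SST nuclei.

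Receptor genes were among those lower at 18 months. RXFP1, a receptor for relaxin, was at 179, 196, 63.1, 71.5 and 26.0 CPM (-1.78 ± 0.29), and HTR4, a serotonin receptor, at 151, 87.0, 30.5, 34.7 and 36.5 CPM (-1.79 ± 0.32). CLSTN2, a synaptic calsyntenin, was at 365, 494, 176, 186 and 104 CPM (-1.46 ± 0.23). The adhesion gene CNTN6 was at 179, 103, 41.4, 43.4 and 59.9 CPM (-1.54 ± 0.30). In each of these the animals did not overlap. The rule for naming genes asks for this and the calls came from the same values, so it adds no evidence. In the other inhibitory nuclei RXFP1 was at 131, 120, 71.8, 88.8 and 93.4 CPM. HTR4 stood there at 57.5, 60.3, 48.6, 45.4 and 46.0 CPM and CLSTN2 at 562, 715, 525, 466 and 447 CPM. For these genes the animals thus lay apart in the same direction in both classes. CNTN6, at 137.5, 151, 115, 139 and 111 CPM, overlapped there.

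Higher at 18 months were GRIN3A, PRKD1, COL24A1 and ADGRL2. GRIN3A, an NMDA receptor subunit that reduces calcium entry, was at 274, 292, 555, 572 and 831 CPM (1.19 ± 0.20). PRKD1, a protein kinase, was at 63.6, 62.2, 155, 163 and 219 CPM (1.49 ± 0.26). The collagen gene COL24A1 (147, 190, 298, 392 and 453 CPM, 1.16 ± 0.22) and the latrophilin gene ADGRL2 (183, 277, 422, 479 and 583 CPM, 1.08 ± 0.21) completed the set, again with no overlap. In the other inhibitory nuclei COL24A1 was at 196, 192, 231, 217 and 217 CPM, so it was higher at 18 months there too. GRIN3A, PRKD1 and ADGRL2 overlapped between the animals in those nuclei.

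The calls between animals changed when single libraries were left out. Without 17-month library 1 edgeR called 15 genes, 2 of them among the 9; without 17-month library 2 it called 4, and without 18-month library 3 it called 5. The counts without 18-month libraries 1 and 2 were 9 and 7. After thinning it called 0 of 1684 genes. A test of whether the SST contrast with the other inhibitory nuclei itself differed between the animals called 6 of 11214 genes (0.0535%), among them PDE3A, PRKD1 and CLSTN2 of the 9 above. That count fell to 1 without 17-month library 2 and to 3 without 18-month library 3, and rose to 13 without 17-month library 1 and to 11 without 18-month library 2.

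**Figure D5:**
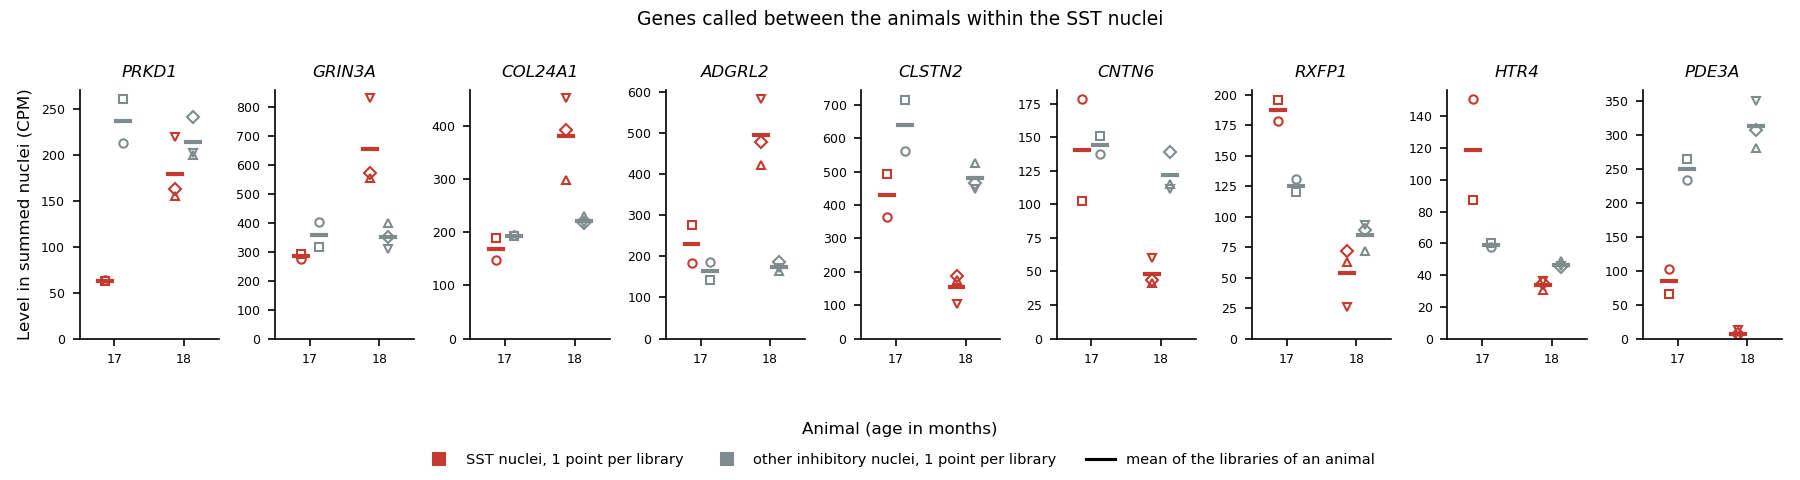
Level (CPM, linear axes from 0, scaled separately per gene) of the 9 genes called between the 17-month and the 18-month animal in SST nuclei (red), beside the other inhibitory nuclei (grey), with 1 point per library and a bar at the mean of each animal. The red points of the animals are apart in each panel, and the calls came from these same values. The grey points of PDE3A lie at 234 to 350 CPM in both. Those of RXFP1, HTR4, CLSTN2 and COL24A1 lie apart between the animals in the same direction as the red points.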

How the data were processed

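The authors deposited 1 matrix of raw UMI counts per library, and per the file headers Cell Ranger 5.0.1 made it. The submitters' processing notes name the builds Mmul_10 and mm10; which reads mm10 served is not given in the sources used here. Genes are named by symbol where the files or the gene name table pair one with the identifier.

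Counts were summed per library and class and tested with edgeR 4.0.16 (R 4.3.3; TMM normalization, filterByExpr, robust quasi-likelihood fit, library as block; none for the animals). A gene was called with a log2 fold change of 1 or more in size (no fold limit between animals) and a p under 0.05 after Benjamini-Hochberg adjustment. CPM are counts scaled by the total UMIs of a sum, without the normalization factor. Thinning drew 3000 UMIs per nucleus. Likely doublets were marked with Scrublet (scanpy 1.11.5), at 0.8% per 1000 barcodes, kept, and left out as an alternative. Gate genes were not tested. The edgeR fits were tested on simulated data: genes changed 4-fold were recovered at 95.2% in the first comparison (10490 genes) and 83.9% between animals (6222 genes). Between animals, where no fold limit applied, genes changed 2-fold were recovered at only 38.3%. In the first comparison they were recovered at 47.8%, but a 2-fold change lies on the limit of the call itself. That share therefore does not measure the sensitivity of the fit alone. Many genes with such a change can stay uncalled in both. DESeq2 1.42.0 was an alternative. The alternatives also changed the gate, the filter, the depth and the libraries kept.

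The members and lists were chosen with earlier results of these data known. Genes were named by rule: up to 4 called members per list with the largest change in 1 direction in every library, and, at 20 CPM or more, the 12 highest and 12 lowest against the other inhibitory nuclei, 8 and 8 against the LHX6 nuclei and 5 and 5 in the remaining comparisons. All genes of the peptide, SST subtype, MGE, CGE and PVALB-type lists and of the gate may be named too. Some genes that this rule selects are not reported here.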

Additional observations from a re-analysis of the deposited data

Results flagged for a closer look

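The contrast of SST nuclei with the other inhibitory nuclei differed between the animals for 6 genes by edgeR's interaction term, as 18-month minus 17-month on the log2 scale. PDE3A had -3.89 (adjusted p = 5.03e-06), PRKD1 1.65 (adjusted p = 0.0048) and CLSTN2 -1.05 (adjusted p = 0.049), and their levels stand above. The remaining 3 are named because they were called here. NKAIN3 had -2.59 (adjusted p = 0.0039), with 71.5, 168, 13.1, 23.9 and 44.3 CPM in SST nuclei, where 27 of 106 UMIs came from 1 nucleus of 17-month library 2. RERG, a small GTPase, had -2.09 (adjusted p = 0.044), at 59.6, 87.0, 10.9, 26.0 and 20.8 CPM in SST nuclei against 40.5 to 62.1 CPM in the other inhibitory nuclei. PIEZO2, a mechanically gated channel, had 1.19 (adjusted p = 0.032), at 199, 137, 592, 306 and 435 CPM against 157, 118, 180, 145 and 147 CPM. Age and animal cannot be told apart in any of them.

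In 8 of 81 genes examined, 1 of the 5 libraries stood apart, its gap to the nearest value taking more than 0.71 of the range; chance does so in about 1 group in 20. The second 17-month library was the high one for GRIA4 (0.819), GRIK4 (0.736), NRG1 (0.724) and IL12RB2 (0.778) and the low one for GRIK3 (0.714). The first 17-month library was the high one for OPRM1 (0.753) and NECAB1 (0.734) and the low one for ZMAT4 (0.812).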

How the results depend on the processing

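The counts called against the other inhibitory nuclei (592) lay between 494 and 647 when any 1 library was left out, and those against the LHX6 nuclei (480) between 466 and 524. With the 17-month libraries alone they were 392 (240 lower) and 306 (157 lower). The LHX6 comparison gave 287 genes (129 higher, 158 lower) with a minimum of 2 LHX6 UMIs, 317 (134 higher) after thinning and 404 lower without the low-count filter, which moved the median of all genes to -0.14 and -0.12 in these comparisons. GXYLT2 reversed to -0.31 in the 17-month libraries alone. Of the values for single genes and counts against the other inhibitory nuclei, 1909 kept direction and call, 66 lost the call, 25 gained it and 1 reversed.

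Between animals (9 genes) the count was 5 by DESeq2, 54 without the filter, 4 to 15 with 1 library left out, 4 with at least 5 SST UMIs, 0 after thinning, 5 with a striatal limit of 5 and 14 without the nuclei with CHODL, chosen after seeing the data. With the replicate number as a block it was 68. Libraries of the same number correlated at 0.13 and -0.028 in their deviations. With 2 libraries at 17 months those deviations mirror each other and cannot show whether the numbers pair, and the labels tie no shared source to a number. The NPY split (8) gave 48 without the filter, 3 to 13 with 1 library left out, 2 after thinning, 31 without the tenth of nuclei highest in glial UMIs and 39 with the striatal limit of 5; in the last 2 only 2 of the 4 libraries kept enough nuclei, so the setting and the loss of libraries cannot be told apart. The CALB1 split (1) gave 7 with DESeq2's size factors, 13 without the filter and 4 after thinning. The interaction (6) gave 2 by DESeq2, 32 without the filter, 1 to 13 with 1 library left out, 0 after thinning and 3 with the striatal limit of 5. The cause was not tested.

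The 18-month share was 8.04% at 2 SST UMIs and 8.20% with the striatal limit of 5. At 5 SST UMIs the shares were 2.38% and 4.53%, and without the LHX6 requirement 8.15% and 9.76%. Not run for too few nuclei or libraries were the CALB1 split without either of its 2 libraries, at 2 CALB1 UMIs and with the striatal limit, and the NPY split at 2 UMIs. With 132 nuclei, genes with a few UMIs have no firm fold.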
